A study of Mus musculus with 6 samples.

Results

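The 39 genes described here encode NRF2 and its inhibitor KEAP1, enzymes that NRF2 is known to induce, and the glutathione, thioredoxin, peroxidase, superoxide dismutase and NADPH-supplying proteins of redox defence. They were chosen by gene symbol, and all 39 were found among the 18864 symbols of the deposited count table. Their RNA was sequenced in 6 cultures of satellite cells, which are the stem cells of muscle, taken from gastrocnemius muscle of C57Bl/6 mice (C56Bl/6 in the sample labels). All 6 cultures were depleted of fibroblasts by repeated plating, grown on matrigel and moved to differentiation medium. In 3 of them the medium held 0.25% BAPN (beta-aminopropionitrile, an inhibitor of lysyl oxidases) for 24 h, and the other 3, the controls, received none. The replicates, numbered 1 to 3 in each group, are called independent in the series description, the mice were 8 weeks old by the sample labels and 6 by the growth protocol, and no genetic modification is named.

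NRF2 is a transcription factor that KEAP1 keeps scarce by handing it to a ubiquitin ligase. Oxidants and electrophiles react with cysteines of KEAP1, NRF2 then accumulates, pairs with small MAF proteins and binds antioxidant response elements in the promoters and enhancers of its target genes. The targets make and recycle glutathione and thioredoxin, supply NADPH for both, and export conjugates, while peroxiredoxins, glutathione peroxidases and catalase remove peroxide. In muscle, peroxide arises from mitochondria and oxidases, and lysyl oxidases release it as they oxidise lysine residues. An mRNA level is not a measure of NRF2 activity, which is set largely by protein stability.

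Of the 39 genes, 18 rose with BAPN, 7 fell and 14 did not pass the test (edgeR's quasi-likelihood test on all 13716 genes with enough counts, Benjamini-Hochberg adjusted p under 0.05). All 39 had enough counts to be tested. Over all genes tested, 15.6% were called higher and 20.8% lower, 36.4% in all. Among the 39 genes the shares were 46.2% and 17.9%. The median log2 fold change, BAPN over control throughout, was 0.27 for the 39 genes and -0.03 for all genes tested. A change of at least 2-fold was seen in 5 of the genes that rose (Srxn1, Gsta4, Hmox1, Gclm and Abcc4) and in 2 of those that fell (Gpx3 and Gpx7). Over all genes tested, 3.97% were called with a rise and 2.95% with a fall of that size. The BAPN libraries were all above the controls for 20 of the 39 genes and all below for 9, against 22.5% and 28.6% of all genes tested (51% for both directions). By role, both regulators were higher, as were 5 of 7 enzymes and exporters of the NRF2 response (1 lower). Higher too were 3 of 4 genes of glutathione synthesis and recycling (0 lower) and 2 of 3 glutathione S-transferases (0 lower). In the group for NADPH supply 4 of 5 genes were higher and 0 lower. In the thioredoxin system 0 of 3 were higher and 1 lower, among glutathione peroxidases 1 of 5 was higher and 3 lower, among catalase and peroxiredoxins 1 of 7 was higher and 2 lower, and 0 of 3 superoxide dismutases were called. Differences between roles were not tested. The members were chosen with earlier results of these data known, so these shares describe the genes and test nothing about them as a set.

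**Figure D1:**
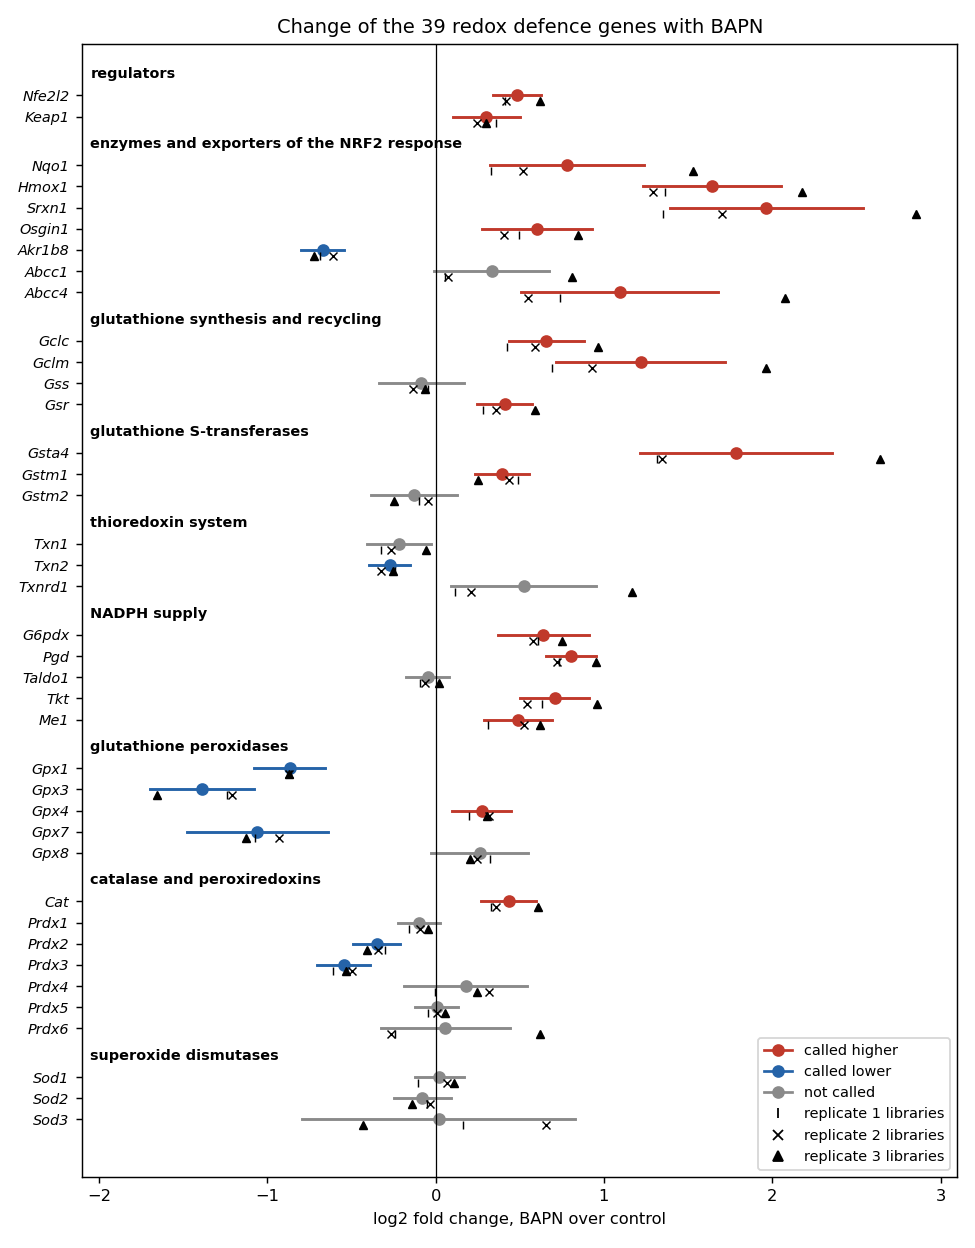
Log2 fold change, BAPN over control, of each of the 39 genes, grouped by role. Circles are edgeR estimates with their 95% confidence intervals, coloured by call, and the small black marks under each are the log2 ratios of the BAPN and control libraries with the same replicate number. Srxn1 (1.96) and Gsta4 (1.78) lie farthest to the right, Gpx3 (-1.39) farthest to the left, and the triangles of replicate 3 lie to the right of the other marks for many NRF2 targets.

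The 6 libraries held between 17125602 and 18682099 counts, of which the 39 genes took 0.464 to 0.524% with BAPN and 0.360 to 0.415% in controls. Levels below are the authors' normalized counts, the raw count divided by a size factor per library, and serve to compare libraries for the same gene. Replicate 3 stood apart from replicates 1 and 2 in both groups: principal component 1 (67.1% of variance) separated BAPN from control, and component 2 (16.5%) separated both libraries of replicate 3 from the rest. The labels state an RNA integrity number under 7.5 for 2 samples that they do not identify, so its part in any value could not be tested. Muscle identity was clear in every library. Of 9 myogenic markers, 7 fell with BAPN, among them Myog and Ckm, and 0 rose. Over all genes tested, 20.8% were called lower and 15.6% higher. The other 2 markers were not called, and log2 fold changes ran from -1.50 to 0.23 over the 9 markers. Their summed normalized count was 278671 to 355363 with BAPN and 582261 to 772298 in controls. Markers of other cells were low: the macrophage list summed to 219.7 to 305 with BAPN and 150 to 263 in controls (Ptprc 0 to 5.5 over the 6 libraries, Cd68 called higher, Itgam lower), adipocytes to 16.6 to 23.4 and 5.09 to 33.2 (Adipoq 0 to 1.1), red blood cells to 2.81 to 6.22 and 3.05 to 13.3, and Schwann cells to 41.0 to 50.8 and 39.8 to 48.8. The fibroblast list summed to 642 to 886 with BAPN and 841 to 936 in controls, with 2 of the 6 genes tested lower and 0 higher, and the endothelial list to 258 to 305 and 218 to 255, with 0 called. In the list for smooth muscle and pericytes (22449 to 25768 with BAPN and 41539 to 54206 in controls) all 3 genes tested fell, and Myh11, too low to be tested, was at 3.7 to 8.8. The part of these differences in the results below was not tested, and in RNA from whole cultures, fewer cells of a type and less RNA per cell cannot be told apart.

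Both regulators rose slightly. Nfe2l2 (chromosome 2, 75675513 to 75704641 in GRCm38), which encodes NRF2, had normalized counts of 3618, 3707 and 3859 with BAPN (replicates 1 to 3) and 2718, 2771 and 2507 in controls. The groups did not overlap, and the log2 fold change was 0.48 (SE 0.06, edgeR adjusted p = 0.0012). Keap1 (chromosome 9, 21229730 to 21239361), which encodes the NRF2 inhibitor, had 567, 556 and 628 with BAPN and 442, 469 and 510 in controls. Its groups were closer, and the log2 fold change of 0.30 (with SE 0.09, edgeR adjusted p = 0.028) is the smallest but 1 among the genes that rose. Keap1 was not called without BAPN replicate 1, 2 or 3, control replicate 1 or 2, or when replicates 1 and 2 of each group were summed, so its call depends on those libraries.

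Of the 7 enzymes and exporters of the NRF2 response, 5 rose, 1 fell and 1 did not pass the test. Srxn1 (chromosome 2, 152105516 to 152111376), sulfiredoxin, which repairs over-oxidised peroxiredoxins, had normalized counts of 2185, 2153 and 3461 with BAPN and 855, 661 and 479 in controls. Every BAPN library lay far above every control, with replicate 3 the highest of its group with BAPN and the lowest without, and the log2 fold change was 1.96 (SE 0.25, edgeR adjusted p = 0.0011), a 3.90-fold rise. Hmox1 (chromosome 8, 75093621 to 75100589), heme oxygenase 1, which breaks heme down to biliverdin, iron and carbon monoxide, had 6346, 5772 and 9396 with BAPN and 2463, 2360 and 2075 in controls. It rose 3.12-fold (log2 fold change 1.64, SE 0.18, edgeR adjusted p = 0.00062), again with replicate 3 outermost in both groups.

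Nqo1 (chromosome 8, 107388225 to 107403206), a quinone reductase widely used as a marker of NRF2 activity, rose less. It had 440.2, 479.7 and 637 with BAPN and 349, 334 and 220.0 in controls, or 0.78 in log2 fold change (with SE 0.20, edgeR adjusted p = 0.018). The gap between the groups in replicate 1 was small and that in replicate 3 wide, and without both libraries of replicate 3 the value was 0.43. Osgin1 (chromosome 8, 119434124 to 119446256), an oxidative stress response gene, rose by 0.60 on the log2 scale (with SE 0.14, edgeR adjusted p = 0.013). With replicates 1 and 2 summed, neither Nqo1 (edgeR adjusted p = 0.069) nor Osgin1 (0.067) was called.

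The export pumps differed in how clearly they moved. Abcc4 (chromosome 14, 118482692 to 118706219), a multidrug resistance protein that exports organic anions, had normalized counts of 268, 264 and 400.0 with BAPN and 160.0, 179.9 and 94.0 in controls, and rose by 1.09 on the log2 scale (with SE 0.25, edgeR adjusted p = 0.012). Abcc1 (chromosome 16, 14361558 to 14475737), which exports glutathione conjugates, had 1910, 1894 and 2743 with BAPN and 1835, 1799 and 1562 in controls. Replicates 1 and 2 of Abcc1 differed little between the groups, and it did not pass the test (log2 fold change 0.33, edgeR adjusted p = 0.11). Without both libraries of replicate 3 the log2 fold changes were 0.64 for Abcc4 and 0.07 for Abcc1, and with replicates 1 and 2 summed Abcc4 was not called (edgeR adjusted p = 0.058).

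Akr1b8 (chromosome 6, 34354119 to 34368463), an aldo-keto reductase of the aldose reductase family, went the other way. It had 2897, 2908 and 2758 with BAPN and 4659, 4434 and 4544 in controls. Replicates lay close together, with every BAPN library below every control and with -0.67 as the log2 fold change (SE 0.06, edgeR adjusted p = 0.00025). Its relative Akr1b10 had a log2 fold change of -0.03 and Akr1b3, aldose reductase, 0.02 (edgeR adjusted p = 0.77 and 0.91), both named after their values were seen. How the authors' counting treated reads shared by close paralogs is not known, so values of aldo-keto reductases and glutathione transferases are uncertain.

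**Figure D2:**
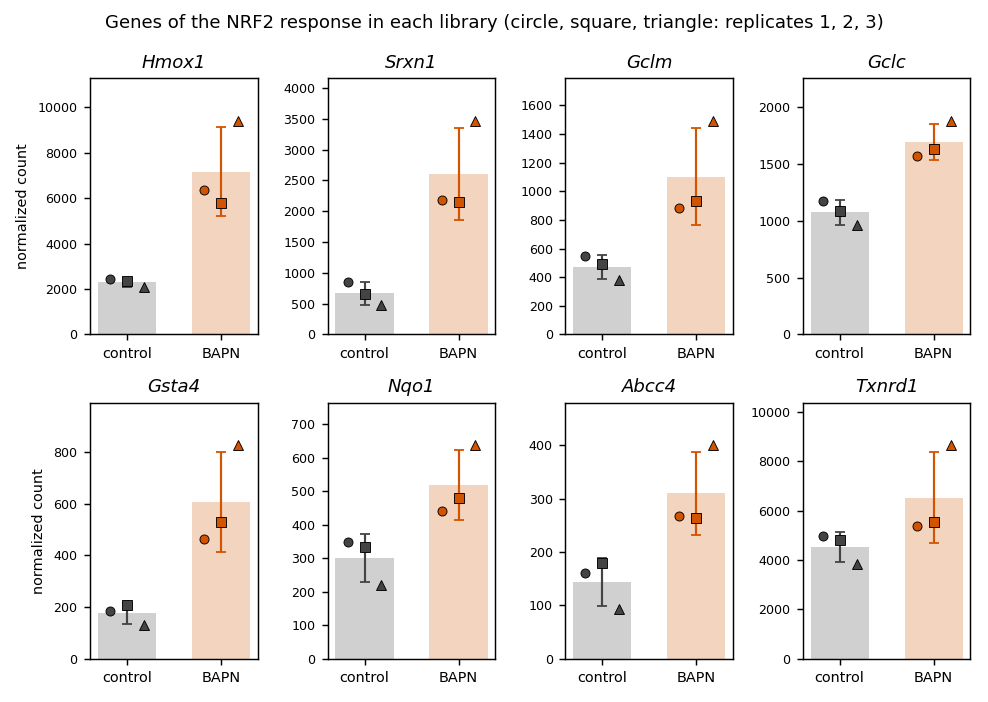
Normalized count in each library of 8 genes of the NRF2 response, in controls (grey) and with BAPN (orange). Bars are means of 3 libraries, error bars SD, and circles, squares and triangles replicates 1, 2 and 3. For Srxn1, Gclm, Nqo1 and Txnrd1, as for the other 4 genes, the triangle is the highest BAPN value and the lowest control value.

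Transcripts for the first, rate-limiting step of glutathione synthesis and for glutathione recycling rose, while glutathione itself was not measured. Gclm (chromosome 3, 122245557 to 122270732), the modifier subunit of glutamate-cysteine ligase, had normalized counts of 886, 930.4 and 1490.1 with BAPN and 548, 489 and 381 in controls. All BAPN libraries were above the controls, and the log2 fold change was 1.22 (SE 0.22, edgeR adjusted p = 0.0043). Gclc (chromosome 9, 77754535 to 77794485), the catalytic subunit, had 1573, 1635 and 1879 with BAPN and 1174, 1086 and 962 in controls. It also rose without overlap, but by less, 0.66 on the log2 scale (with SE 0.10, edgeR adjusted p = 0.0020). Gsr (chromosome 8, 33652523 to 33698163), which reduces oxidised glutathione with NADPH, rose by 0.41 (SE 0.07, edgeR adjusted p = 0.0040), a call just lost with replicates 1 and 2 summed. Gss (chromosome 2, 155563181 to 155592810), which adds glycine in the second step, had 736, 731 and 612 with BAPN and 760.1, 804 and 640.0 in controls. Its groups overlapped and it did not pass the test (log2 fold change -0.08, 95% confidence interval -0.34 to 0.17, edgeR adjusted p = 0.58).

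The glutathione S-transferases, which join glutathione to electrophiles, differed among themselves. Gsta4 (chromosome 9, 78182774 to 78209349), whose enzyme conjugates the lipid peroxidation product 4-hydroxynonenal, had normalized counts of 465, 531 and 826 with BAPN and 186, 208 and 132 in controls. Every BAPN library was above every control, and the log2 fold change was 1.78 (SE 0.25, edgeR adjusted p = 0.0016). Gstm1 (chromosome 3, 108012255 to 108017973) rose by 0.39 (SE 0.07, edgeR adjusted p = 0.0041), and it was not called with replicates 1 and 2 summed (0.073). Its neighbour Gstm2 (chromosome 3, 107981702 to 107986453) had 173, 202 and 175 with BAPN and 185, 208 and 208 in controls, which overlap (log2 fold change -0.13, 95% confidence interval -0.38 to 0.13, edgeR adjusted p = 0.41).

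The thioredoxin system did not move as a unit. Txnrd1 (chromosome 10, 82833951 to 82897712), the selenoenzyme that reduces cytosolic thioredoxin, had normalized counts of 5400, 5549 and 8647 with BAPN and 4979, 4801 and 3857 in controls. The groups did not overlap, but the difference came mostly from replicate 3, and the gene did not pass the test (log2 fold change 0.52, SE 0.19, edgeR adjusted p = 0.061). It was called in a fit with the replicate number as a block (0.49, edgeR adjusted p = 0.034), with TMM scaling (0.57, edgeR adjusted p = 0.049) or upper quartile scaling, and in DESeq2 (0.56, DESeq2 adjusted p = 0.013). Without both libraries of replicate 3 its log2 fold change was 0.16, and it was called (edgeR adjusted p = 0.0018). It was not called with replicates 1 and 2 summed (edgeR adjusted p = 0.11).

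Txn1 (chromosome 4, 57943373 to 57956411), cytosolic thioredoxin, had normalized counts of 3992, 4029 and 3920.0 with BAPN and 4992, 4836 and 4079 in controls. All BAPN libraries were below the controls, though control replicate 3 came close, and it did not pass the test (log2 fold change -0.22, SE 0.08, edgeR adjusted p = 0.070) except with the replicate block (-0.22, edgeR adjusted p = 0.019), without control replicate 3 or without both libraries of replicate 3. With replicates 1 and 2 summed it was not called (edgeR adjusted p = 0.35). Txn2 (chromosome 15, 77915047 to 77929006), the mitochondrial thioredoxin, fell by 0.27 on the log2 scale (with SE 0.05, edgeR adjusted p = 0.0059). In the same summed data Txn2 was not called (edgeR adjusted p = 0.11).

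Of the genes grouped here as NADPH supply, 4 of 5 rose. The group takes in Tkt and Taldo1 of the pentose phosphate pathway, whose enzymes do not form NADPH themselves. Pgd (chromosome 4, 149149991 to 149166771), 6-phosphogluconate dehydrogenase, the second NADPH-forming enzyme of the pentose phosphate pathway, had normalized counts of 4883, 4860 and 5285 with BAPN and 2935, 2945 and 2728 in controls. Its 3 BAPN libraries lay close together and far above the controls, and it had the smallest adjusted p of the 39 genes (log2 fold change 0.80, SE 0.06, edgeR adjusted p = 0.00022). G6pdx (chromosome X, 74409483 to 74429194), glucose-6-phosphate dehydrogenase, which starts the pathway, had 1877, 1801 and 1572 with BAPN and 1230, 1203 and 934 in controls. It rose without overlap by 0.64 (SE 0.12, edgeR adjusted p = 0.0046), and its call was just lost with replicates 1 and 2 summed (0.051).

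In the branch that returns pentoses to glycolysis, the transketolase gene Tkt (chromosome 14, 30548359 to 30574720) rose by 0.71 on the log2 scale (with SE 0.09, edgeR adjusted p = 0.0011). The transaldolase gene Taldo1 (chromosome 7, 141392199 to 141402968) had normalized counts of 3358, 3385 and 3580.1 with BAPN and 3582, 3541 and 3535 in controls, which overlap (log2 fold change -0.05, 95% confidence interval -0.17 to 0.08, edgeR adjusted p = 0.55). Me1 (chromosome 9, 86581371 to 86695953), cytosolic malic enzyme, which forms NADPH from malate, rose by 0.49 (SE 0.09, edgeR adjusted p = 0.0042). The log2 ratios of same-numbered libraries were 0.73, 0.72 and 0.95 for Pgd and 0.63, 0.54 and 0.96 for Tkt.

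Antioxidant response element cores were looked for in the promoters. RefSeq promoter windows (GRCm38.p6, 250 bases before to 50 after the start site) were at hand for 32 of the 39 genes. The other 7 were Abcc1, Gclc, Gsr, Gsta4, Hmox1, Prdx6 and Sod3, of which Gclc, Gsr, Gsta4 and Hmox1 rose. The core TGACNNNGC was found on either strand in 10 of the 32 genes (31.2%), against 17.3% of the 10145 genes tested that had a window. Counted by window and not by gene, 12.4% of all 32851 windows held it. Known NRF2 targets are among the 32 genes by choice, so these shares describe the genes and test nothing about them. Of the 10 genes with a core, 7 rose (Abcc4, G6pdx, Gclm, Me1, Nfe2l2, Pgd and Srxn1), 0 fell and 3 did not pass the test (Prdx1, Sod1 and Txnrd1). Of the 22 without a core in any window, 7 rose, 7 fell and 8 did not pass. Over all genes tested, with or without a core or window, 15.6% were called higher and 20.8% lower. These shares were not split by core. A gene with several windows was counted if any of them held a core, and Pgd, Me1 and Txnrd1 each had another window without it. In Pgd and Srxn1 the core lay after the start site. Whether calls differ between genes with and without a core was not tested. The cores read TGACTCAGC in both Me1 and Prdx1, TGACTGAGC in G6pdx, TGACGGTGC in Gclm, TGACTCCGC in Nfe2l2, TGACAAAGC in Txnrd1 and TGACATTGC in Pgd. Of the 2 genes with the same core, Me1 rose and Prdx1 did not pass the test. The hypoxia response element core ACGTG was in 28.1% of the 32 genes and 29.5% of the genes tested, and the ATF4 core TGATGNAA in 0 of the 32 and 2.63%. A match here is a run of letters, not a bound site, and elements outside the window were not searched.

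The 250 bases before the start site of 3 genes that rose and of Prdx1 are shown to let the cores be seen in place. Each runs 5′ to 3′ on the strand of the gene, and capitals mark the core, which reads on the opposite strand in Gclm, G6pdx and Prdx1. The core begins 134 bases before the start site in Gclm, 57 in G6pdx, 240 in Nfe2l2 and 133 in Prdx1.
Gclm (chr3:122245307-122245556, plus strand): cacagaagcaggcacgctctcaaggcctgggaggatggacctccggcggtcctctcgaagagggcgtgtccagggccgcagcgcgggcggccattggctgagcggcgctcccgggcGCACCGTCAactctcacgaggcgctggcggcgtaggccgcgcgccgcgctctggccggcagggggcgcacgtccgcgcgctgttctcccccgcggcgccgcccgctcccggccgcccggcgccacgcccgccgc
G6pdx (chrX:74428881-74429130, minus strand): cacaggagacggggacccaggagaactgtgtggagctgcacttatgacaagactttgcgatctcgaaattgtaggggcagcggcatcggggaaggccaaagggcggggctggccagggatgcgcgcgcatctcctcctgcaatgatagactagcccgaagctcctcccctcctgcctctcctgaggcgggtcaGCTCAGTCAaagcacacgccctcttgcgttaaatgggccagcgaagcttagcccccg
Nfe2l2 (chr2:75704664-75704913, minus strand): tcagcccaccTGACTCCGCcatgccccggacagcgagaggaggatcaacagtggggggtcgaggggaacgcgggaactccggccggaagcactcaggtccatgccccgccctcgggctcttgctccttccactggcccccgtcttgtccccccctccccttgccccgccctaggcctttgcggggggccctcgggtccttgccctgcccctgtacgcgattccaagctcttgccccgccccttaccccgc
Prdx1 (chr4:116685349-116685598, plus strand): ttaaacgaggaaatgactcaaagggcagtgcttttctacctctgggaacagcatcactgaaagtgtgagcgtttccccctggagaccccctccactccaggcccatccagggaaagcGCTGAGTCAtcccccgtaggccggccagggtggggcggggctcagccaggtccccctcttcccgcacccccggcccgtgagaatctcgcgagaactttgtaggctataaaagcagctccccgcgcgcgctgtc

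Glutathione peroxidases, which reduce peroxides with glutathione, included the genes that fell most. Gpx3 (chromosome 11, 54902453 to 54910377), the secreted plasma form, had normalized counts of 982, 995 and 1034 with BAPN and 2320, 2302 and 3254 in controls. The BAPN libraries were nearly alike and all far below the controls, a 2.62-fold fall (log2 fold change -1.39, SE 0.13, edgeR adjusted p = 0.00039). Gpx1 (chromosome 9, 108338903 to 108340343), the abundant cytosolic form, had 3630.4, 3524 and 3061 with BAPN and 6582, 6433 and 5594 in controls. It fell by 0.87 on the log2 scale (with SE 0.09, edgeR adjusted p = 0.00055), and the log2 ratios of same-numbered libraries were nearly equal at -0.86, -0.87 and -0.87.

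Gpx7 and Gpx8 encode related proteins of the endoplasmic reticulum that lack selenocysteine. Gpx7 (chromosome 4, 108400390 to 108406961) had normalized counts of 135, 146 and 184 with BAPN and 285, 279.5 and 405 in controls. Its groups were well apart, and it fell by 1.06 on the log2 scale (with SE 0.18, edgeR adjusted p = 0.0037). Gpx8 (chromosome 13, 113042753 to 113046410) had 1791, 1761 and 1367 with BAPN and 1432, 1487 and 1185 in controls, where BAPN replicate 3 fell within the range of the controls. It did not pass the test (0.26, 95% confidence interval -0.03 to 0.55, edgeR adjusted p = 0.14), but it was called higher with the replicate block (0.26, edgeR adjusted p = 0.0046) and without BAPN replicate 3 or both libraries of replicate 3. With replicates 1 and 2 summed it was not called (edgeR adjusted p = 0.35).

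Gpx4 (chromosome 10, 80047166 to 80056439), which reduces lipid hydroperoxides in membranes and protects against ferroptosis, was the member of the family that rose. It had 1516, 1561 and 1738 with BAPN and 1322, 1254 and 1408 in controls, or 0.27 in log2 fold change (with SE 0.08, edgeR adjusted p = 0.024). The gap between the groups was narrow, and Gpx4 was not called without BAPN replicate 2, without control replicate 1 or 2, or with replicates 1 and 2 summed. Per kilobase of exon, Gpx1 made up 48.9 to 55.7% of the summed level of the 5 genes in controls and 41.2 to 43.8% with BAPN, and Gpx4 8.98 to 10.3% and 15.3 to 19.6%. Gpx8 took 14.2 to 17.5% in controls and 25.3 to 29.7% with BAPN, and Gpx3 15.6 to 22.6% and 9.41 to 11.1%. The shares of these genes did not overlap between the groups, while those of Gpx7 did. Shares depend on each other: the summed level was 7940 to 8200 per kilobase in controls and 5150 to 5750 with BAPN. A fall of Gpx1 and Gpx3 therefore raises the shares of the others, and Gpx8 itself did not pass the test.

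Catalase rose, and 2 of 6 peroxiredoxins fell. Cat (chromosome 2, 103453849 to 103485160), the peroxisomal enzyme that splits hydrogen peroxide, had normalized counts of 1603, 1672 and 1843 with BAPN and 1275, 1303 and 1209 in controls. The groups did not overlap, and the log2 fold change was 0.43 (SE 0.07, edgeR adjusted p = 0.0030). Prdx3 (chromosome 19, 60864051 to 60874556), the mitochondrial peroxiredoxin that Txn2 reduces, had 1337, 1388 and 1496 with BAPN and 2042, 1957 and 2161 in controls. All BAPN libraries were below the controls, a fall by 0.55 on the log2 scale (with SE 0.07, edgeR adjusted p = 0.0011). Prdx2 (chromosome 8, 84969587 to 84974834), a cytosolic peroxiredoxin abundant in red blood cells, fell by 0.35 (SE 0.06, edgeR adjusted p = 0.0038), and was not called with replicates 1 and 2 summed (0.068).

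The other 4 peroxiredoxins did not pass the test. Prdx1 (chromosome 4, 116685544 to 116700822), a cytosolic form and an NRF2 target, had normalized counts of 4709, 4844 and 4848 with BAPN and 5251, 5169 and 4995 in controls. The BAPN libraries were all slightly below the controls (log2 fold change -0.10, 95% confidence interval -0.22 to 0.03, edgeR adjusted p = 0.20), and Prdx1 was called lower without both libraries of replicate 3 (-0.13). Prdx6 (chromosome 1, 161240112 to 161251219), which reduces phospholipid hydroperoxides, had 3280.1, 3125 and 4795 with BAPN and 3876, 3755 and 3116 in controls. The replicates disagreed: BAPN was lower in replicates 1 and 2 and higher in replicate 3, and the log2 fold change was 0.06 over all libraries (edgeR adjusted p = 0.81) and -0.25 without both libraries of replicate 3, where it was called. Prdx4 (chromosome X, 155323918 to 155340754), of the endoplasmic reticulum, and Prdx5 (chromosome 19, 6906697 to 6910106), of mitochondria and peroxisomes, had log2 fold changes of 0.18 and 0.01 (95% confidence intervals -0.19 to 0.54 and -0.12 to 0.13, edgeR adjusted p = 0.41 and 0.94).

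**Figure D3:**
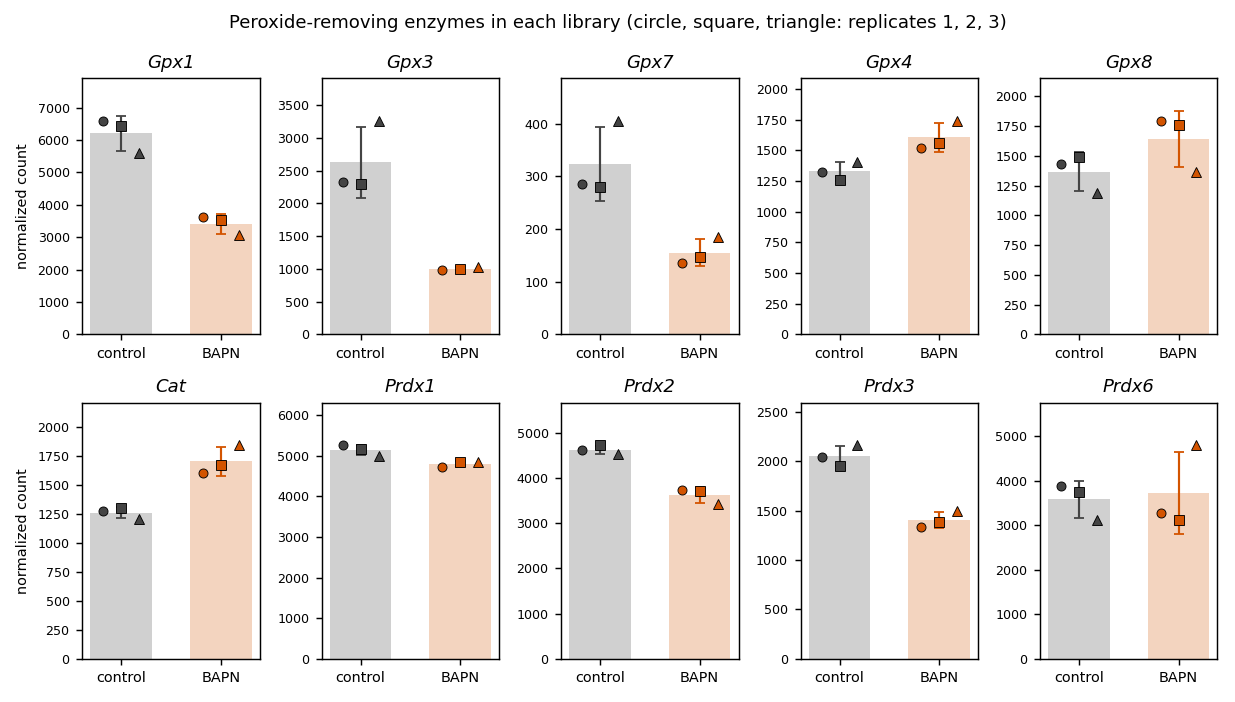
Normalized count in each library of 10 peroxide-removing enzymes, in controls (grey) and with BAPN (orange). Bars are means of 3 libraries, error bars SD, and circles, squares and triangles replicates 1, 2 and 3. Gpx1, Gpx3, Gpx7, Prdx1, Prdx2 and Prdx3 are lower with BAPN in every library, though Prdx1 only slightly and without passing the test. Gpx4 and Cat are higher, and Prdx6 differs in direction between replicate 3 and the others.

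The superoxide dismutases, which turn superoxide into hydrogen peroxide, did not pass the test. Sod1 (chromosome 16, 90220754 to 90226329), the cytosolic copper and zinc enzyme, had normalized counts of 2752, 2790.4 and 2907 with BAPN and 2962, 2662 and 2689 in controls. Sod2 (chromosome 17, 13006846 to 13040063), the mitochondrial manganese enzyme, had 1902, 1848 and 1998 with BAPN and 1973, 1893 and 2204 in controls. Both pairs of groups overlapped, with log2 fold changes of 0.02 for Sod1 and -0.08 for Sod2 (95% confidence intervals -0.12 to 0.17 and -0.25 to 0.09, edgeR adjusted p = 0.80 and 0.43). Sod3 (chromosome 5, 52363791 to 52371418), the secreted form, was near the bottom of the range, with 57.1, 61.5 and 77.7 with BAPN and 50.9, 38.6 and 105 in controls. The controls were spread widely, and the log2 fold change was 0.02 (95% confidence interval -0.79 to 0.83, edgeR adjusted p = 0.97).

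The difference between groups was widest in replicate 3 for part of these genes. For 9 of the 39 (23.1%) the log2 ratio of BAPN to control in replicate 3 exceeded those of both replicates 1 and 2 by more than 0.5, against 4.16% of all genes tested: Nqo1, Hmox1, Srxn1, Abcc1, Abcc4, Gclm, Gsta4, Txnrd1 and Prdx6. It fell below both by that much only for Sod3 among the 39 (2.56%), against 5.62% of all genes tested. The limit of 0.5 was chosen after the ratios were seen. In Srxn1 the log2 ratios were 1.35, 1.70 and 2.85 for replicates 1, 2 and 3, in Gsta4 1.31, 1.35 and 2.64, in Gclm 0.69, 0.93 and 1.96, and in Hmox1 1.37, 1.29 and 2.18. In these 4 genes BAPN replicate 3 was the highest library and control replicate 3 the lowest. Without both libraries of replicate 3, the log2 fold changes were 1.52 for Srxn1, 1.33 for Hmox1 and Gsta4 and 0.81 for Gclm, and all 4 were still called. Among the genes that fell, the 3 ratios were -0.61, -0.50 and -0.53 for Prdx3 and -0.69, -0.61 and -0.72 for Akr1b8. The RNA quality and culture of replicate 3 could not be tied to these values from the labels.

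**Figure D4:**
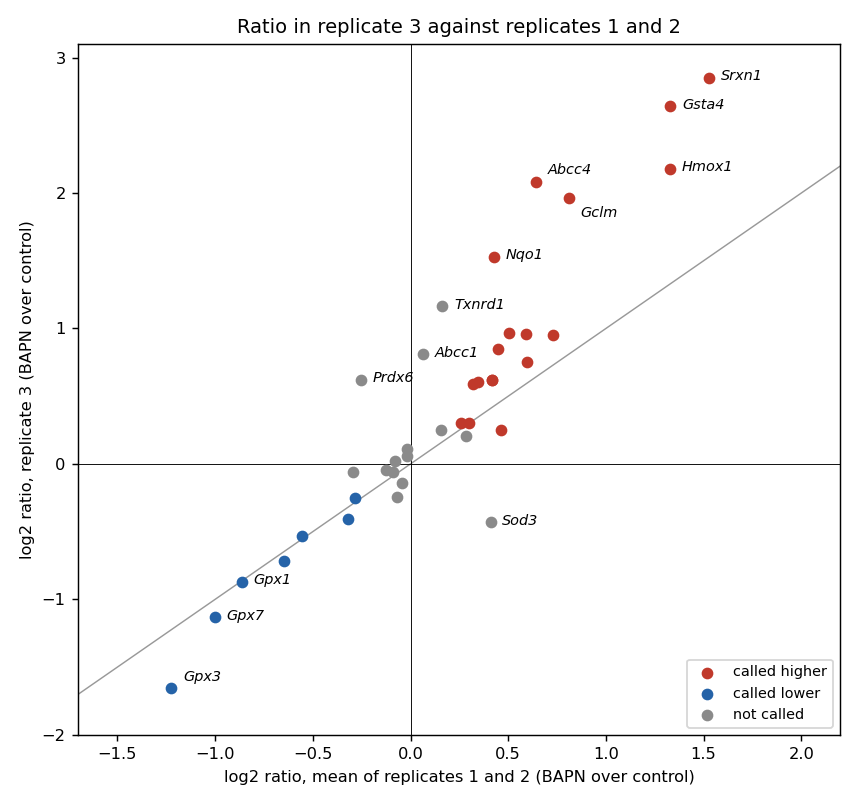
Log2 ratio of BAPN to control in replicate 3 (vertical axis) against the mean log2 ratio of replicates 1 and 2 (horizontal axis), a point for each of the 39 genes, coloured by call. The grey line marks equal ratios. Srxn1, Gsta4, Hmox1, Abcc4, Gclm, Nqo1, Txnrd1 and Abcc1 lie above the line, while Gpx1 and Gpx7 lie close to it.

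Levels of different genes were compared per kilobase of exonic length, from the controls. Cytosolic thioredoxin Txn1 and Gpx1 stood highest, at 4411 ± 465 and 4305 ± 370 normalized counts per kilobase (SD, n = 3), which do not differ beyond their spread. Akr1b8 came next at 3033 ± 75.1, followed by Prdx1 at 1689 ± 43.0 and Taldo1 at 1636 ± 11.9. The lowest were Gclm at 75.2 ± 13.4, Abcc4 at 22.6 ± 7.04 and Sod3 at 17.4 ± 9.45. With BAPN, Hmox1 went from 1313 ± 115 to 4096 ± 1113 normalized counts per kilobase, above Txn1 at 3787 ± 52.8, a difference within the spread of Hmox1. Of the 5 genes with the highest level per kilobase in controls, Gpx1 and Akr1b8 fell and 0 rose. Of the 3 lowest, Gclm and Abcc4 rose at least 2-fold and Sod3 did not pass the test. Over all genes tested, 15.6% were called higher and 20.8% lower. Elsewhere in the ranking Hmox1 (rank 9) rose and Gpx7 (rank 25) fell at least 2-fold. The control level also enters the fold change, and a link between level and change was not tested. Lengths take in every annotated exon, so genes with long rare isoforms are set too low.

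Other genes of the pathway were described from 7 lists. Of the NRF2 regulators and partners tested, 9 of 16 rose (56.2%) and 3 fell (18.8%), against 15.6% and 20.8% of all genes tested (median log2 fold change 0.31). The small MAF gene Maff (1.36), the coactivator gene Ep300 (0.52) and Gsk3b, a kinase that marks NRF2 for degradation (0.42), rose, and Pgam5, a mitochondrial phosphatase that binds KEAP1, fell (-0.49, edgeR adjusted p = 0.0021). Of other NRF2 targets and detoxifying enzymes, 7 of 22 rose (31.8%) and 2 fell (9.09%), with a median of 0.05. Aldh3a1 and Aldh9a1, aldehyde dehydrogenases, rose (0.95 and 0.64), and the aldehyde reductase gene Akr1a1 and Fech, ferrochelatase of heme synthesis, fell (-0.33 and -0.79).

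Genes of the cystine and cysteine supply for glutathione held the greatest rise in these lists. Slc7a11 (xCT), the cystine importer, had normalized counts of 518, 539 and 1533 with BAPN and 53.0, 43.7 and 60.8 in controls, or 4.04 in log2 fold change (with SE 0.50, edgeR adjusted p = 0.0011). Its BAPN libraries were all many times the controls, and replicate 3 was again the highest. Its partner Slc3a2 (1.15), Cth, which forms cysteine from cystathionine (1.79), and Chac1, which degrades glutathione (2.70), also rose (edgeR adjusted p = 0.012, 0.0047 and 0.00075). All 4 are also known as targets of ATF4, a factor of the integrated stress response. Of the 25 genes tested for glutathione transport, transfer and turnover, 7 rose (28%) and 3 fell (12%), with a median of 0.03. Over all genes tested, 15.6% were called higher and 20.8% lower.

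In the redoxin and selenium lists the shares called were near those of all genes tested (15.6% higher and 20.8% lower). Of 17 thioredoxin, glutaredoxin and methionine sulfoxide repair genes, 2 rose (Glrx, cytosolic glutaredoxin, 0.94, and Sesn2, sestrin 2, 0.85) and 3 fell, among them Msrb3 and the mitochondrial Glrx2 (-0.62 and -0.39), which makes 11.8% higher and 17.6% lower. Of 10 genes of selenium handling and selenoprotein synthesis, on which Gpx1, Gpx3, Gpx4 and Txnrd1 depend, 2 rose and 2 fell, 20% each (median -0.15). The selenoprotein P receptor gene Lrp8 rose by 1.54 on the log2 scale (with SE 0.10, edgeR adjusted p = 9.7e-05) and Sephs2, selenophosphate synthetase, by 0.27, while Selenop (-0.84) and Sephs1 (-0.21) fell. Of 18 genes on the list of other NADPH supply, 6 rose (33.3%) and 2 fell (11.1%), with a median of 0.16. Those with the smallest p were Mthfd1l (1.82) and Aldh1l2 (2.43) of mitochondrial folate metabolism, Idh1, cytosolic isocitrate dehydrogenase (0.79), and Nadk2, mitochondrial NAD kinase (0.56), all higher.

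Of 19 producers of peroxide or superoxide tested, 5 rose (26.3%) and 4 fell (21.1%), with a median of 0.20. Over all genes tested, 15.6% were called higher and 20.8% lower, the latter near the share of this list. Ero1l, which passes electrons from disulfide formation to oxygen, rose by 2.76 on the log2 scale (with SE 0.15, edgeR adjusted p = 7.1e-05), and Xdh, xanthine dehydrogenase (1.27), and Smox, spermine oxidase (0.89), rose too. The lysyl oxidases, the target of BAPN, were split: Lox (0.76) and Loxl2 (0.95) rose, and Loxl1 (-0.58), Loxl3 (-0.68) and Loxl4 (-0.69) fell.

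**Figure D5:**
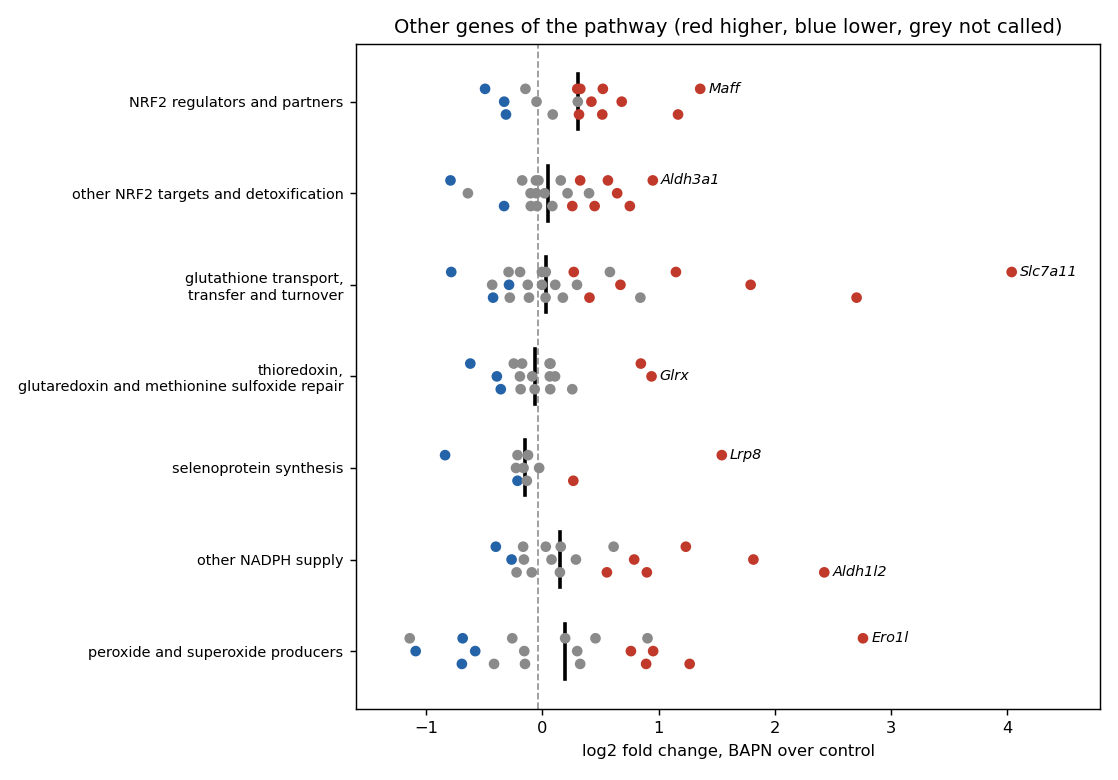
Log2 fold change, BAPN over control, of the tested genes of 7 further lists of the pathway, a point per gene, with red for higher, blue for lower and grey for not called. Black bars are list medians, the dashed line is the median of all genes tested (-0.03), and the gene with the highest value of each list is named. Slc7a11 (4.04) and Ero1l (2.76) lie farthest to the right.

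The authors' deposited table gives its own fold changes and adjusted p-values, from a fit whose samples are not stated. In the authors' deposited table, 28 of the 39 genes had an adjusted p under 0.05, among them all 25 called here, with the same signs. The other 3 were Abcc1, Txn1 and Gpx8, with adjusted p of 0.043, 0.020 and 0.037 in the authors' deposited table and log2 fold changes of 0.33, -0.22 and 0.26.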

How the data were processed

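RNA was sequenced from 3 BAPN and 3 control cultures, as single reads of 60 nt per the labels' protocols. The submitters' processing notes name STAR, HTSeq, cutadapt, DESeq2 and the build GRCm38 (mm10). The strand used in counting, the annotation and tool versions were not given in the sources used here. The authors deposited raw counts per gene symbol (0 rows name no gene), normalized counts, a signal equal to the count over a size factor per library, and their own comparison with log2 fold changes, p-values and adjusted p-values, per the file headers. Their mean of normalized counts differed by over 10% from that of the 6 libraries for 8739 of the genes tested.

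Counts were scaled by the authors' size factors and fitted in edgeR 4.0.16 (glmQLFit, glmQLFTest, R 4.3.3) for all genes whose normalized count averaged 10 or more, without a block, and p-values were adjusted over all 13716. Alternatives used limma 3.58.1 (log2 of normalized count plus 1) and DESeq2 1.42.0, other scalings, filters and left-out libraries. Confidence intervals are edgeR's, at 95%, unadjusted. Log2 ratios of same-numbered libraries used a pseudocount of 1. The procedure was tested on simulated data with 3 libraries a group. It recovered 95% of 2-fold and 68% of 1.5-fold changes, and 4.68% of its calls were false. A gene that did not pass the test is therefore not shown to be unchanged.

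Replicate numbers come from the titles. Each library's deviation from its group mean was correlated, across genes, with that of its namesake in the other group. The values were 0.184, 0.190 and 0.366 for replicates 1, 2 and 3. BAPN replicate 3 had -0.205 and -0.296 with control replicates 1 and 2, so replicate 3 was set apart. BAPN replicate 1 correlated more with control replicate 2 (0.229), so a pairing by number within replicates 1 and 2 was not shown. The main fit used no block, while the block fit and the log2 ratios of same-numbered libraries took the numbers as pairs. The p-values reflect only how these 3 libraries a group vary.

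Members and lists were chosen with earlier results of these data known. The text names all 39 members, the 4 called genes with the smallest p in each wider list, and the lysyl oxidases. Positions and exonic lengths are from GENCODE M21 (GRCm38), which may not be the authors' annotation. By it Gclm shares 244 exonic bases with another gene on the same strand, and Tkt 1. On the opposite strand Keap1, Gss, G6pdx, Me1, Prdx2 and Prdx5 share exonic bases, with 510 in Keap1 and 30 in Me1. Reads from processed pseudogenes may be shared, and pseudogenes are named after Gstm2, Gpx4 and Prdx6. All these values are uncertain, to differing degrees. Promoters are RefSeq's, for GRCm38.p6.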

Additional observations from a re-analysis of the deposited data

How the results depend on the processing

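Over 16 alternatives, 15 of the 25 called members stayed called in the same direction in every one, and 9 members were called in none, the main fit included. Scaling (TMM, upper quartile, median ratio), DESeq2, limma-trend, both filters and each left-out library kept the count of members within 16 to 19 higher and 7 to 8 lower. Their median log2 fold change was 0.25 to 0.32 over all 16. Leaving out each library gave 1449 to 2317 higher and 1866 to 3119 lower genes over the whole table. The main fit gave 2140 higher and 2850 lower, and median-ratio scaling 2353 and 2482. TMM scaling gave 2450 and 2381, and upper quartile scaling 2433 and 2430. The excess of lower over higher genes in the whole table thus depended on the scaling. With the replicate block, 20 members were higher and 8 lower (Txn1, Txnrd1 and Gpx8 were gained), and 2790 and 3709 of all genes; no other member's call changed.

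With replicates 1 and 2 of each group summed, which leaves 4 libraries, 10 members were higher and 5 lower, and 716 and 809 of all genes. Without both libraries of replicate 3, 20 members were higher and 10 lower and 3224 of all genes were higher and 4253 lower, but these counts rest on replicates 1 and 2 alone, which lay closer together (SD of their log2 difference 0.237 with BAPN and 0.262 in controls) than either did to replicate 3 (0.373 to 0.394). Prdx6 was then called in the opposite direction, with a log2 fold change of -0.25. With a single library left out, its value ran from -0.16 (without BAPN replicate 3) to 0.17 (without BAPN replicate 2). Without control replicate 3 it was -0.03. Replicate 3 was the library pair in which Prdx6 was higher with BAPN, and the cause was not tested.

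RNA quality could not be assigned to libraries, and pseudogene or paralog reads could not be separated.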
